A study of Mus musculus with 24 samples.

Results

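The genes described here are 8 genes that the literature names as targets of the transcription factor EGR1 in neurons, namely Cdk5r1, Syn1, Syn2, Dlg4, Ache, Bace1, Psen2 and Trp53. They were taken by gene symbol from that literature. All 8 were found among the 36605 genes of the count table, and all 8 passed the filter on low counts in every comparison reported here. RNA of the hippocampus was sequenced from 24 adult mice of 4 genotypes, with 3 mice of each sex in each. Egr1 fNes Cre+ mice (Egr1cKO) carry an *Egr1* allele flanked by loxP sites (from an Egr1_tm1a_A04 strain on C57BL/6N) together with a transgene that drives Cre recombinase from the Nestin promoter (B6.Cg-Tg(Nes-Cre)1Kln/J). Floxed controls (Egr1 fNes Cre-) carry the floxed allele alone, Cre controls (Egr1 wtNes Cre+) carry Cre alone, and wild-type mice (Egr1 wtNes Cre-) carry neither. The Nestin promoter is active in neural precursors, so Cre acts in neurons and glia derived from them throughout the brain and not in hippocampal neurons alone.

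The mice with the floxed allele and the mice without it carry numbers from separate ranges in the labels. Egr1cKO mice therefore differ from Cre controls and from wild-type mice in number range as well as in genotype, and the effects of these cannot be told apart. The floxed controls are the control from the same range. The total count per mouse ran from 18025168 to 34955004, with a median of 22743950.5. Levels are given as CPM, each gene's part of the total count of its mouse (per M counts), with the total corrected by edgeR's TMM factors, or, where genes are compared with each other, as RPKM, which also divides by the length of the exons in kilobases. In whole-tissue RNA, fewer cells of a type and less RNA per cell cannot be told apart. The labels also give a cell type, endocrine, for this tissue. Of 8 pituitary hormone and regulator genes, 7 were matched, 6 of them averaged under 1 CPM, and the most abundant, Tshb, averaged 1.24 CPM. By contrast all 8 of 8 markers of hippocampal neurons passed the filter over the 24 mice, from Grik4 at 60.8 CPM to Zbtb20 at 471 CPM, so the tissue is called hippocampus here.

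EGR1 is a zinc finger protein whose gene is switched on within minutes of synaptic activity and which binds GC-rich sequence in promoters. It is known in the hippocampus for its part in late long-term potentiation and memory. The 8 genes act at separate places downstream of neuronal activity: an activator of the kinase CDK5, proteins of the synaptic vesicle and of the postsynaptic density, the enzyme that ends cholinergic signalling, the proteases that cut the amyloid precursor protein, and the tumor suppressor p53.

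*Egr1* itself was examined first, since it checks the genotype labels. In Egr1cKO mice the lowest, median and highest levels of *Egr1* were 4.86, 8.18 and 10.2 CPM, from 125 to 268 counts. They were 67.0, 83.3 and 147 CPM in floxed control, 47.7, 85.2 and 125 CPM in Cre control, and 63.8, 111 and 149 CPM in wild-type mice. Each of the 6 Egr1cKO mice lay below each of the 18 mice of the other genotypes, so the level of *Egr1* went against no label. Counts are summed over the gene, and reads from exons inside and outside the floxed stretch were not separated. The log2 fold change (log2FC) of Egr1cKO was −3.57 against floxed controls (standard error 0.19, adjusted *p* = 3.02e-08 from edgeR), −3.45 against Cre controls (0.21, adjusted *p* = 6.96e-07) and −3.79 against wild-type mice (0.18, adjusted *p* = 9.23e-09). The 18 mice with intact *Egr1* covered a 3.13-fold range of its level.

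None of the 8 reported targets was a differentially expressed gene (DEG) in any of these 3 comparisons. A DEG was counted at a fold change (FC) of at least 1.2, which is 0.263 on the log2 scale, and an adjusted *p* of at most 0.05 from edgeR's quasi-likelihood test with Benjamini-Hochberg adjustment over all genes tested. The same 6 Egr1cKO mice stand in each comparison, so the 3 are not independent of each other. In the comparison of Egr1cKO with floxed controls, 0 of 8 targets and 4 of 18074 genes (0.0221%) were DEGs, against 61 genes with DESeq2. Those 4 were Egr1 and C4b, which fell, and Tnc and Aqp4, which rose. Against Cre controls, 0 of 8 targets and 1 of 17909 genes (0.00558%, Egr1) were DEGs, against 30 with DESeq2. Against wild-type mice, 0 of 8 targets and 2 of 18062 genes (0.0111%, Egr1 and Aqp4) were DEGs, against 20 with DESeq2. With a share of DEGs this low over all genes, a count of 0 among 8 genes is what the background gives, and the bounds on each gene carry more than the count. DESeq2 called 0 of the 8 targets in each of the 3 comparisons as well.

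At an unadjusted *p* under 0.05 from edgeR, 1 of the 8 targets passed against floxed controls, where 15.8% of all genes did. Against Cre controls 2 of the 8 passed beside 12.1% of all genes, and against wild-type mice 1 of the 8 beside 7.23%. These counts are near the background shares. The gene that passed in each of the 3 comparisons was Cdk5r1, and the other was Bace1 against Cre controls. For 0 of the 8 targets did the 6 Egr1cKO values lie apart from the 6 control values in any comparison, while 0.459%, 0.352% and 0.305% of all genes had groups that did not overlap against floxed control, Cre control and wild-type mice.

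The log2FCs of the targets were small. Against floxed controls 4 of 8 were positive, with a median of 0.02, beside 48.65% of all genes and a median of −0.0070. Against Cre controls 7 of 8 were positive, with a median of 0.04, beside 46.7% and −0.02 over all genes. Against wild-type mice 7 of 8 were positive, with a median of 0.03, beside 49.1% and −0.0031. None of these counts comes with a test. The median size of the log2FC, without its sign, was 0.07, 0.07 and 0.05 for the targets in the same order and 0.14, 0.14 and 0.09 over all genes tested, and the median standard error was 0.06, 0.08 and 0.06 beside 0.12, 0.13 and 0.11. The mean CPM of the targets lay above that of 54.5% (Psen2) to 99.6% (Dlg4) of the 19742 genes kept over the 24 mice.

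The 95% confidence interval of the log2FC lay wholly inside a 1.2-fold change in either direction for 6 of the 8 targets against floxed controls, for 5 against Cre controls and for 7 against wild-type mice. Over all genes tested the shares were 23.2%, 19.9% and 35.9%. Syn1, Syn2, Dlg4, Ache and Trp53 were inside in each of these 3 comparisons, so for these 5 genes a 1.2-fold difference between Egr1cKO mice and any of the 3 control genotypes lies outside the interval. Psen2 was outside in each, Cdk5r1 in the first and the second, and Bace1 in the second. The widest bounds over the 8 genes and 3 comparisons were a log2FC of −0.39 for Psen2 against wild-type mice and 0.32 for Cdk5r1 against floxed controls.

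**Figure D1:**
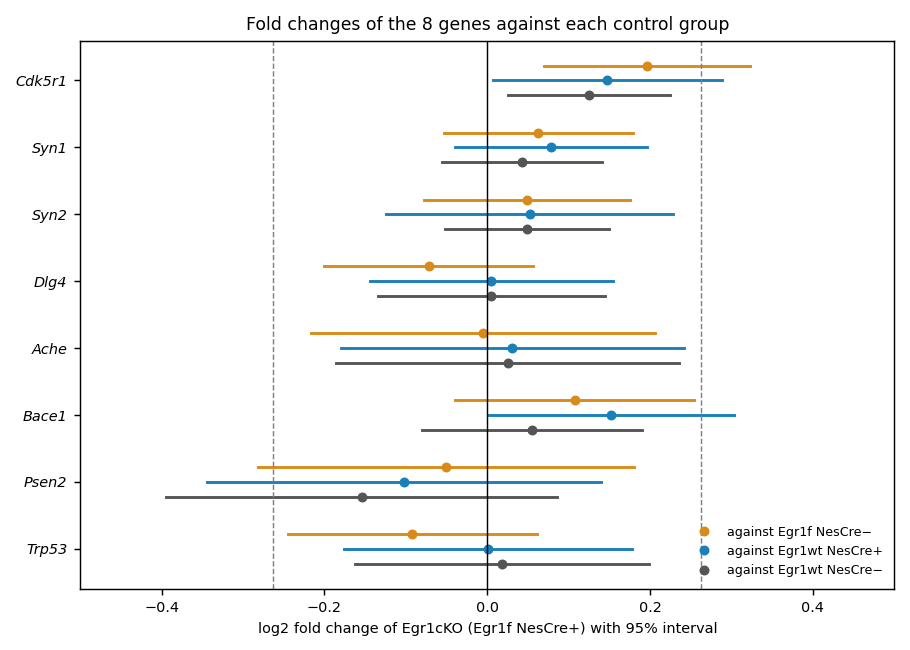
Log2 fold change of each reported target in Egr1cKO mice against each control genotype (n = 6 mice each), with its 95% confidence interval from edgeR's quasi-likelihood fit. Dashed lines mark a 1.2-fold change in either direction (0.263 on the log2 scale). The log2FCs lie between −0.15 (Psen2) and 0.20 (Cdk5r1).

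Per unit of exon length, Syn1 was the most abundant of the 8 genes, at 177 ± 7.45 RPKM (SD, n = 24 mice). Syn2 followed at 99.2 ± 7.09 RPKM, then Dlg4 at 70.6 ± 5.2 RPKM and Cdk5r1 at 70.3 ± 5.13 RPKM, which do not differ beyond their spread. The 4 remaining genes were lower, with Ache at 13.9 ± 1.54 RPKM, Bace1 at 12.1 ± 1.00 RPKM, Trp53 at 5.71 ± 0.586 RPKM and Psen2 at 3.38 ± 0.457 RPKM. The 2 synapsin genes thus stood at the top of this order, with Dlg4 and Cdk5r1 next and the presenilin gene at its end. The length used is that of all annotated exons of a gene merged, 13251 bases for Dlg4, 7031 for Syn2 and 3299 for Syn1. The order depends on these lengths. In CPM, Dlg4 was highest at 936, followed by Syn2 at 698 and Syn1 at 585. The coefficient of variation over the 24 mice was lowest for Syn1, at 4.20%, and highest for Psen2, at 13.5%, beside a median of 17.7% over the 19742 genes kept.

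Cdk5r1 (ENSMUSG00000048895, chromosome 11, 80477023 to 80481184 on GRCm38, plus strand) encodes p35, which activates the kinase CDK5 in neurons and whose cleavage product p25 activates it for longer. Its lowest, median and highest levels were 300.5, 320.2 and 331 CPM in Egr1cKO mice. They were 264, 267 and 310 CPM in floxed control, 266, 283 and 327 CPM in Cre control, and 280.5, 291 and 302 CPM in wild-type mice. The Egr1cKO mice were the highest group, and each of the 6 was above the median of each control genotype. Their range still overlapped that of every control genotype, because male replicate 1 of floxed controls was at 310 CPM, male replicate 2 of Cre controls at 327 CPM and female replicate 2 of wild-type mice at 302 CPM. Among females, the 3 Egr1cKO mice, from 316 to 328 CPM, lay above every female of each control genotype, of which the highest were at 288, 289 and 302 CPM. Among males they lay above every wild-type mouse, with 300.5 CPM the lowest beside 295 CPM, and overlapped the floxed and the Cre controls. The share of all genes whose groups of 3 lie apart in this way was not computed. It was not particular to Cdk5r1. Syn1 in Egr1cKO females, from 604 to 634 CPM, also lay above every control female, of which the highest were at 596, 580 and 601 CPM. Above every mouse of the control genotype lay 4 of the 6 Egr1cKO mice in the first comparison, 2 in the second and 5 in the third.

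Against floxed controls the log2FC of Cdk5r1 was 0.20 (standard error 0.06, 95% confidence interval 0.07 to 0.32, adjusted *p* = 0.254 from edgeR), which is 14.5% higher, with bounds of 4.91% and 25.0%. Against Cre controls it was 0.15 (standard error 0.07, interval 0.0064 to 0.29, adjusted *p* = 0.400 from edgeR). Against wild-type mice it was 0.12 (standard error 0.05, interval 0.02 to 0.22, adjusted *p* = 0.639 from edgeR). Each of the 3 estimates was under 1.2-fold and none passed the adjustment over all genes. An exact two-sided permutation test of this gene alone, which exchanges mice of the same sex between 400 arrangements and cannot give a *p* below 0.005, gave *p* = 0.015, 0.02 and 0.005 in the same order. Those 3 values carry no adjustment for the number of genes.

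With 1 mouse left out at a time, the log2FC of Cdk5r1 stayed positive, from 0.18 to 0.24, from 0.13 to 0.20 and from 0.11 to 0.14. Without male replicate 1 of floxed controls, the deepest library of the study, it was 0.24 with an adjusted *p* of 0.0437 from edgeR, and it was not a DEG because 0.24 is under the 1.2-fold minimum. Over the 19 alternatives to that comparison the adjusted *p* ran from 0.0437 to 0.707. Without male replicate 2 of Cre controls, the log2FC against that genotype was 0.20 with an adjusted *p* of 0.0619, in a range of 0.0619 to 0.643.

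The mean level of Cdk5r1 was 317 ± 13.0 CPM in Egr1cKO, 290.4 ± 7.83 CPM in wild-type, 286 ± 21.7 CPM in Cre control and 277 ± 18.4 CPM in floxed controls (SD, n = 6 each). The step from the first to the second was larger than both SDs, and the neighbours below it did not differ beyond their spread. Pooled against the other 18 mice, Egr1cKO mice had a log2FC of 0.17 (standard error 0.04, interval 0.07 to 0.26, adjusted *p* = 0.186 from edgeR). The pooled fit called 3 of 18766 genes (0.016%) and 0 of the 8 targets, while 15% of all genes and 2 of the targets, Cdk5r1 and Bace1, had an unadjusted *p* under 0.05, and DESeq2 called 45 genes.

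Genes that work with p35 were set beside it. The list held 12 genes, CDK5 itself, its other activators and binding proteins, substrates such as tau, and the calpains that cleave p35. In edgeR's test and in DESeq2's, 0 of the 12 were DEGs in any of the 3 comparisons, and 5, 0 and 1 had an unadjusted *p* under 0.05 in edgeR. The numbers with a positive log2FC were 7, 7 and 9, with medians of 0.0080, 0.05 and 0.06. Cdk5, the kinase that p35 activates, had log2FCs of −0.20 (standard error 0.09, adjusted *p* = 0.295 from edgeR), −0.15 (0.10, adjusted *p* = 0.530) and −0.08 (0.07, adjusted *p* = 0.848), on the other side of 0 from Cdk5r1. It was chosen to be named after its values were seen. The others of the 5 genes with an unadjusted *p* under 0.05 from edgeR against floxed controls had positive log2FCs. They were Gsk3b (0.27), Dcx (0.33), Rasgrf2 (0.18) and Capn2 (0.12). Mapt, which encodes tau and was the most abundant of the list at 473 CPM, had log2FCs of 0.0044, 0.05 and 0.02.

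**Figure D2:**
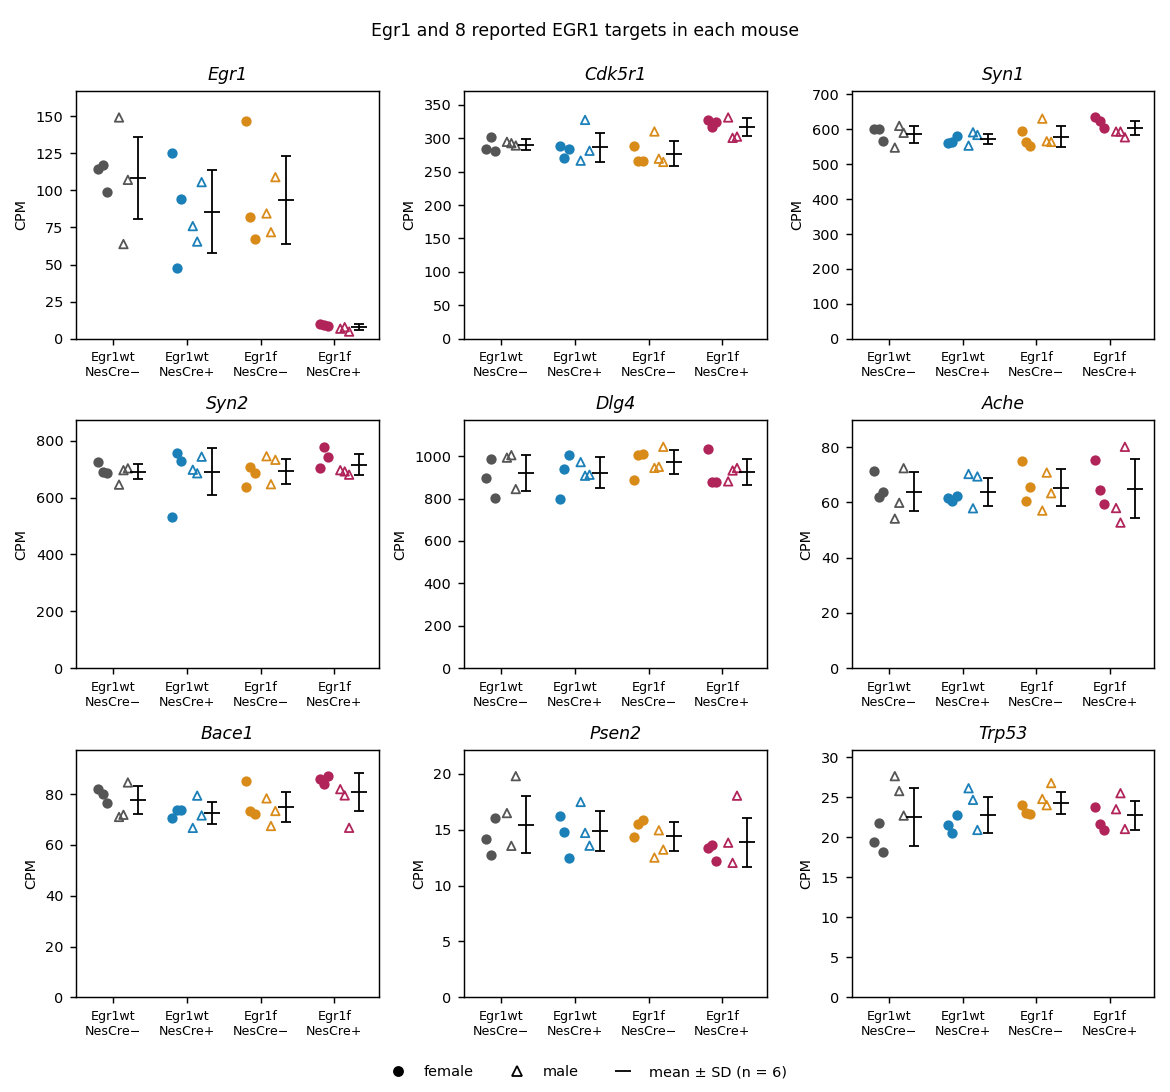
CPM of the 8 reported targets and of *Egr1* in each of the 24 mice by genotype, with females and males marked and the mean ± SD of the 6 mice of a genotype. Egr1 lies between 4.86 and 10.2 CPM in Egr1cKO mice and between 47.7 and 149 CPM in the others, while the genotypes overlap for every target.

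Syn1 (ENSMUSG00000037217, chromosome X, 20860511 to 20921004, minus strand) encodes synapsin I, which tethers synaptic vesicles to each other and to actin in the reserve pool. The lowest, median and highest levels of Syn1 were 577, 598 and 634 CPM in Egr1cKO and 553, 565 and 630.2 CPM in floxed controls. They were 553, 572 and 591 CPM in Cre control and 547, 595 and 609.5 CPM in wild-type mice. All 6 Egr1cKO mice were above the medians of the first and the second of these controls, 3 of 6 were above that of the wild type, and the ranges overlapped in each case. Against Cre controls 5 of 6 lay above every control mouse, and male replicate 3 was the exception.

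The log2FC of Syn1 was 0.06 against floxed controls (standard error 0.05, interval −0.05 to 0.18, adjusted *p* = 0.583 from edgeR). It was 0.08 against Cre controls (0.06, −0.04 to 0.20, adjusted *p* = 0.564 from edgeR). It was 0.04 against wild-type mice (0.05, −0.06 to 0.14, adjusted *p* = 0.877 from edgeR). The upper bounds were 13.2%, 14.6% and 10.2%, and the lower bounds −3.59%, −2.70% and −3.79%. The exact permutation test within sex gave *p* = 0.115, 0.025 and 0.165, with no adjustment. In the same order, the log2FC of Syn1 ran from 0.05 to 0.10, from 0.07 to 0.09 and from 0.03 to 0.06 with 1 mouse left out at a time. The gene lies on the X chromosome, and its log2FC of females against males was 0.0081 (standard error 0.03, interval −0.06 to 0.08, adjusted *p* = 0.986 from edgeR), with means of 587 ± 26.3 CPM over females and 583 ± 23.6 CPM over males (SD, n = 12 each).

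Syn2 (ENSMUSG00000009394, chromosome 6, 115134902 to 115282006, plus strand) encodes synapsin II, the second synapsin of excitatory terminals. Levels of Syn2, given as lowest, median and highest, were 681, 699.8 and 779 CPM in Egr1cKO and 638, 696 and 746 CPM in floxed controls. They were 531, 714 and 757 CPM in Cre control and 646, 693 and 725 CPM in wild-type mice. Female replicate 1 of Cre controls was the low value of 531 CPM, and the other ranges lay on top of each other. The log2FC was 0.05 in each comparison, with intervals of −0.08 to 0.18, −0.12 to 0.23 and −0.05 to 0.15 and adjusted *p* values of 0.711, 0.817 and 0.863 from edgeR. With 1 mouse left out at a time, the log2FCs ran from 0.03 to 0.08, from −0.02 to 0.08 and from 0.03 to 0.07.

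The presynaptic list held 16 further genes of the vesicle and its release machinery. In edgeR's test and in DESeq2's, 0 of the 16 were DEGs in each comparison, and 5, 3 and 2 had an unadjusted *p* under 0.05 in edgeR. Positive log2FCs numbered 11, 12 and 14, with medians of 0.06, 0.08 and 0.03, beside −0.0070, −0.02 and −0.0031 over all genes tested. The most abundant, Cplx2, which encodes the fusion clamp complexin 2 and averaged 1788 CPM, had log2FCs of 0.05, 0.13 and 0.07. Syn1 and Syn2 lay close to the medians of the list.

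Dlg4 (ENSMUSG00000020886, chromosome 11, 70016942 to 70047522, plus strand) encodes PSD-95, the scaffold that holds glutamate receptors in the postsynaptic density. It had the largest counts of the 8 genes, with a mean of 936 CPM. Its lowest, median and highest levels were 877, 907 and 1036 CPM in Egr1cKO and 889, 977 and 1044 CPM in floxed controls. They were 796, 926 and 1007 CPM in Cre control and 803, 941 and 1005 CPM in wild-type mice. In Egr1cKO mice 5 of 6 values were below the median of floxed controls and 1, in female replicate 1, was the highest of its group. The log2FC was −0.07 against floxed controls (standard error 0.06, interval −0.20 to 0.06, adjusted *p* = 0.572 from edgeR), 0.0049 against Cre controls (0.07, −0.14 to 0.15, adjusted *p* = 0.986) and 0.0050 against wild-type mice (0.07, −0.13 to 0.14, adjusted *p* = 0.992). The first of these ran from −0.11 to −0.05 with 1 mouse left out at a time.

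Other genes of the postsynaptic density were set beside Dlg4. Of 18 such genes, 15, 17 and 14 had a positive log2FC in the 3 comparisons, with medians of 0.14, 0.17 and 0.07 beside −0.0070, −0.02 and −0.0031 over all genes. In edgeR's test and in DESeq2's, 0 of the 18 were DEGs, and 6, 7 and 0 had an unadjusted *p* under 0.05 in edgeR. Without the filter on low counts, where edgeR called 808, 529 and 251 genes in all, 4, 4 and 1 of the 18 were DEGs and Dlg4 was not. Camk2a, the kinase subunit that is the most abundant of the list at 4654 CPM, had log2FCs of 0.17 (standard error 0.08, adjusted *p* = 0.324 from edgeR), 0.25 (0.11, adjusted *p* = 0.384) and 0.05 (0.08, adjusted *p* = 0.923). The log2FCs of the list ran from −0.09 to 0.38, from −0.06 to 0.42 and from −0.10 to 0.28, and those of Dlg4 lay inside these ranges. The difference between Dlg4 and these genes was not tested.

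Ache (ENSMUSG00000023328, chromosome 5, 137287519 to 137294466, plus strand) encodes acetylcholinesterase, which breaks down acetylcholine at cholinergic synapses. The lowest, median and highest levels of Ache were 52.7, 61.9 and 80.1 CPM in Egr1cKO and 57.0, 64.5 and 75.0 CPM in floxed controls. They were 57.9, 62.0 and 70.3 CPM in Cre control and 54.1, 62.8 and 72.4 CPM in wild-type mice. The Egr1cKO mice held both the lowest value of the 24 mice, in male replicate 2, and the highest, in male replicate 3. The log2FC was −0.0053 against floxed controls (standard error 0.10, interval −0.22 to 0.21, adjusted *p* = 0.986 from edgeR), 0.03 against Cre controls (0.10, −0.18 to 0.24, adjusted *p* = 0.920) and 0.02 against wild-type mice (0.10, −0.19 to 0.23, adjusted *p* = 0.976). Its sign changed in each comparison when single mice were left out, with ranges of −0.09 to 0.05, −0.05 to 0.10 and −0.06 to 0.08. A fall of more than 14.0% or a rise of more than 15.4% against floxed controls lies outside the interval.

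The cholinergic list held 17 further genes for the synthesis, transport and anchoring of acetylcholine signalling proteins and for its receptors. Of these, 5 averaged under 1 CPM, with Chat, the enzyme that makes acetylcholine, the lowest at 0.0955 CPM, and 14, 13 and 14 were tested. In edgeR's test and in DESeq2's, 0 were DEGs, and 5, 0 and 0 had an unadjusted *p* under 0.05 in edgeR. Positive log2FCs numbered 13, 10 and 10, with medians of 0.23, 0.18 and 0.10. Chrm1, the muscarinic receptor gene that is the most abundant of the list at 262 CPM, had log2FCs of 0.06, 0.16 and −0.03.

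Bace1 (ENSMUSG00000032086, chromosome 9, 45838580 to 45864399, plus strand) encodes beta-secretase, which makes the first cut in the amyloid precursor protein on the way to amyloid beta. Levels of Bace1, given as lowest, median and highest, were 66.7, 82.9 and 87.0 CPM in Egr1cKO and 67.4, 73.4 and 85.0 CPM in floxed controls. They were 66.7, 72.7 and 79.4 CPM in Cre control and 71.0, 78.2 and 84.5 CPM in wild-type mice. In Egr1cKO mice 5 of 6 values lay above the median of each control genotype, and the exception was male replicate 3, at 66.7 CPM. The same 5 lay above every Cre control mouse, and 2 of the 6 were above every mouse of each other control.

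The log2FC of Bace1 was 0.11 against floxed controls (standard error 0.07, interval −0.04 to 0.25, adjusted *p* = 0.450 from edgeR). It was 0.15 against Cre controls (standard error 0.07, interval 0.0016 to 0.30, adjusted *p* = 0.412 from edgeR), which is 11.1% higher with an upper bound of 23.4%. Against wild-type mice it was 0.05 (0.06, −0.08 to 0.19, adjusted *p* = 0.890 from edgeR). Pooled against the other 18 mice it was 0.11 (0.05, 0.0070 to 0.22, adjusted *p* = 0.304 from edgeR). The exact permutation test within sex gave *p* = 0.135, 0.06 and 0.4 in the 3 comparisons. In the same order, the log2FC of Bace1 ran from 0.09 to 0.16, from 0.14 to 0.20 and from 0.04 to 0.10 with 1 mouse left out at a time. Because the libraries were not stranded, reads of Bace1 cannot be separated from those of genes on the other strand: 975 of its exonic bases (15.4%) are shared with Rnf214 and 951 (15.0%) with Gm49338. For the other targets at most 98 exonic bases (2.1%, Ache with Gm42456) were shared, and Cdk5r1, Dlg4 and Trp53 shared none.

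Psen2 (ENSMUSG00000010609, chromosome 1, 180227004 to 180263438, minus strand) encodes presenilin 2, a catalytic subunit of gamma-secretase, which makes the second cut. It was the least abundant target, with 246 to 464 counts per mouse. Its lowest, median and highest levels were 12.0, 13.5 and 18.03 CPM in Egr1cKO and 12.5, 14.6 and 15.9 CPM in floxed controls. They were 12.4, 14.7 and 17.5 CPM in Cre control and 12.7, 15.1 and 19.8 CPM in wild-type mice. In Egr1cKO mice 5 of 6 values lay below the median of each control genotype, and male replicate 3 was the high value of 18.03 CPM. The log2FC was −0.05 against floxed controls (standard error 0.11, interval −0.28 to 0.18, adjusted *p* = 0.843 from edgeR), −0.10 against Cre controls (0.11, −0.34 to 0.14, adjusted *p* = 0.722) and −0.15 against wild-type mice (0.11, −0.39 to 0.09, adjusted *p* = 0.802). Its lower bounds, −17.8%, −21.2% and −23.9%, were the widest of the 8 genes, so a 1.2-fold fall lies inside each interval.

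In male replicate 3 of Egr1cKO mice, Psen2 and Ache were highest and Bace1, Syn1, Syn2 and *Egr1* lowest among the 6 mice of the genotype. Leaving it out moved the number of DEGs from 4 to 13 against floxed controls and from 2 to 18 against wild-type mice. None of these DEGs was a target. Without it the log2FC of Psen2 was −0.15 against floxed controls, −0.19 against Cre controls and −0.23 against wild-type mice, with adjusted *p* values of 0.356, 0.362 and 0.369 from edgeR. Over the 19 alternatives to each comparison its adjusted *p* from edgeR or DESeq2 ran from 0.356 to 0.982, from 0.362 to 0.926 and from 0.369 to 0.976. Over the 12 fits that left out 1 mouse it ran from −0.15 to −0.0088, from −0.19 to −0.05 and from −0.23 to −0.09.

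The list of amyloid processing genes held 12 others, the precursor family and the alpha-, beta- and gamma-secretase subunits. In edgeR's test and in DESeq2's, 0 of the 12 were DEGs, and 2, 1 and 0 had an unadjusted *p* under 0.05 in edgeR. Positive log2FCs numbered 8, 6 and 7, with medians of 0.10, 0.02 and 0.03. Aplp1, a homologue of the precursor and the most abundant of the list at 1356 CPM, had log2FCs of −0.10, −0.05 and −0.02.

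Trp53 (ENSMUSG00000059552, chromosome 11, 69580359 to 69591873, plus strand) encodes p53, which halts the cell cycle or starts cell death after DNA damage. The lowest, median and highest levels of Trp53 were 20.9, 22.6 and 25.5 CPM in Egr1cKO and 23.0, 24.0 and 26.8 CPM in floxed controls. They were 20.6, 22.2 and 26.2 CPM in Cre control and 18.1, 22.3 and 27.7 CPM in wild-type mice. In Egr1cKO mice 3 of 6 values were below every floxed control mouse, and all 6 lay inside the ranges of both Egr1 wt genotypes. The log2FC was −0.09 against floxed controls (standard error 0.07, interval −0.24 to 0.06, adjusted *p* = 0.536 from edgeR), 0.00097 against Cre controls (0.08, −0.18 to 0.18, adjusted *p* = 0.997) and 0.02 against wild-type mice (0.09, −0.16 to 0.20, adjusted *p* = 0.980). The first of these ran from −0.12 to −0.05 with 1 mouse left out at a time.

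The 18 genes of the p53 pathway that were listed with it are its regulators and transcriptional targets. In edgeR's test and in DESeq2's, 0 of the 18 were DEGs, and 1, 2 and 1 had an unadjusted *p* under 0.05 in edgeR. Positive log2FCs numbered 10, 10 and 11, with medians of 0.04, 0.09 and 0.10. Plk2, a kinase gene induced by p53 and by neuronal activity and the most abundant of the list at 223 CPM, had log2FCs of 0.08, 0.09 and −0.02.

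The floxed allele and Cre were also examined apart from each other. Floxed controls and wild-type mice also differ in number range, so the effects of the allele and of the range cannot be told apart. Between floxed control and wild-type mice, edgeR called 0 of the 8 targets and 0 of 18220 genes (0%), where 1716 genes and 0 of the targets had an unadjusted *p* under 0.05 and DESeq2 called 2 genes. Between Cre control and wild-type mice it called 0 of the 8 and 0 of 18022 genes (0%), where 1104 genes and 0 of the targets had an unadjusted *p* under 0.05 and DESeq2 called 16. The log2FCs of the targets ran from −0.10 (Psen2) to 0.11 (Trp53) for the floxed allele and from −0.10 (Bace1) to 0.02 (Trp53) for Cre. Cdk5r1 had −0.07 (standard error 0.05, adjusted *p* = 0.645 from edgeR) and −0.02 (0.06, adjusted *p* = 0.949).

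Whether the effect of Cre depends on the floxed allele was tested as an interaction over all 24 mice. Of 18766 genes, edgeR called 1 (0.00533%, Egr1 at −3.21, adjusted *p* = 1.26e-06), while 3534 had an unadjusted *p* under 0.05 and DESeq2 called 36. None of the 8 targets was called by either tool. Cdk5r1 had an interaction term of 0.22 on the log2 scale (standard error 0.08, interval 0.06 to 0.38, adjusted *p* = 0.156 from edgeR) and Bace1 one of 0.21 (0.09, 0.02 to 0.40, adjusted *p* = 0.214 from edgeR). The other 6 targets had terms between −0.10 (Trp53) and 0.10 (Syn1).

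Between the 12 females and the 12 males, 0 of the 8 targets and 14 of 18766 genes (0.0746%) were DEGs with edgeR, and 1 target and 1111 genes had an unadjusted *p* under 0.05, while DESeq2 called 16 genes and 0 targets. That target was Trp53, with a mean of 21.7 ± 1.76 CPM over females and 24.5 ± 2.13 CPM over males (SD, n = 12 each). The sexes overlapped, from 18.1 to 24.0 CPM and from 20.9 to 27.7 CPM, and the log2FC was −0.17 (standard error 0.06, interval −0.29 to −0.06, adjusted *p* = 0.697 from edgeR).

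The difference between Egr1cKO and floxed controls was then compared between the sexes, in a fit of all 24 mice by genotype and sex. The interaction test called 0 of the 8 targets and 0 of 19742 genes (0%) with edgeR, where 884 genes and 0 of the targets had an unadjusted *p* under 0.05, and DESeq2 called 3 genes and 0 targets. For Cdk5r1 the log2FC was 0.24 in females (interval 0.07 to 0.41) and 0.15 in males (−0.02 to 0.32), and the difference between them was 0.10 (standard error 0.12, interval −0.14 to 0.33, adjusted *p* = 1.00 from edgeR). The term farthest from 0 was that of Psen2, at −0.34 (standard error 0.22, interval −0.79 to 0.12, adjusted *p* = 1.00 from edgeR), from a log2FC of −0.22 in females and 0.11 in males. With 3 mice of each sex and genotype, none of the 8 intervals of this term lay inside a 1.2-fold difference.

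The 18 mice with intact *Egr1* allow a separate question, whether a target follows the level of *Egr1* from mouse to mouse. Pearson's r of log2(CPM + 1) was highest for Bace1, at 0.33 (permutation *p* = 0.180, Spearman's rho 0.22 with permutation *p* = 0.375), and lowest for Syn2, at −0.39 (permutation *p* = 0.106, rho −0.31 with permutation *p* = 0.203). For Cdk5r1 it was 0.17 (permutation *p* = 0.513, rho 0.23 with permutation *p* = 0.367). The r was 0.05 for Syn1, −0.27 for Dlg4, 0.17 for Ache, 0.03 for Psen2 and −0.00014 for Trp53, with permutation *p* values of 0.852, 0.271, 0.501, 0.896 and 0.999. For the same 5 genes Spearman's rho was 0.01, −0.28, 0.22, 0.04 and −0.05, with permutation *p* values of 0.961, 0.261, 0.390, 0.866 and 0.831. Adjusted over the 19741 genes correlated with *Egr1* in the same way, the 8 values lay between 0.846 and 1.00, and 0 of the 19741 genes passed at 0.05, while 1237 (6.27%) had an unadjusted *p* under 0.05.

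Without the 2 mice farthest from the median level of *Egr1* on the log scale, at 47.7 and 149 CPM, r was 0.49 for Bace1, 0.39 for Ache, 0.12 for Syn1, 0.0089 for Cdk5r1, −0.06 for Psen2, −0.24 for Syn2, −0.41 for Trp53 and −0.44 for Dlg4. Since the floxed and the unfloxed mice come from separate number ranges, r was also taken within each. Within the 12 Egr1 wt mice it ran from −0.45 (Syn2) to 0.14 (Psen2), and within the 6 floxed controls from −0.43 (Dlg4) to 0.79 (Bace1, exact permutation *p* = 0.0667). For Cdk5r1 it was 0.11 and 0.27. Split by sex, Cdk5r1 had an r of 0.74 in the 9 females (exact permutation *p* = 0.0214, rho 0.83) and −0.19 in the 9 males (exact permutation *p* = 0.627), and the difference between these was not tested. Of 56 alternative values of r over the targets, that in females was the only 1 with an unadjusted permutation *p* under 0.05. No adjustment over all genes was run within these smaller sets of mice. The size of the relation moved with the mice included, and its sign did for every target but Bace1.

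**Figure D3:**
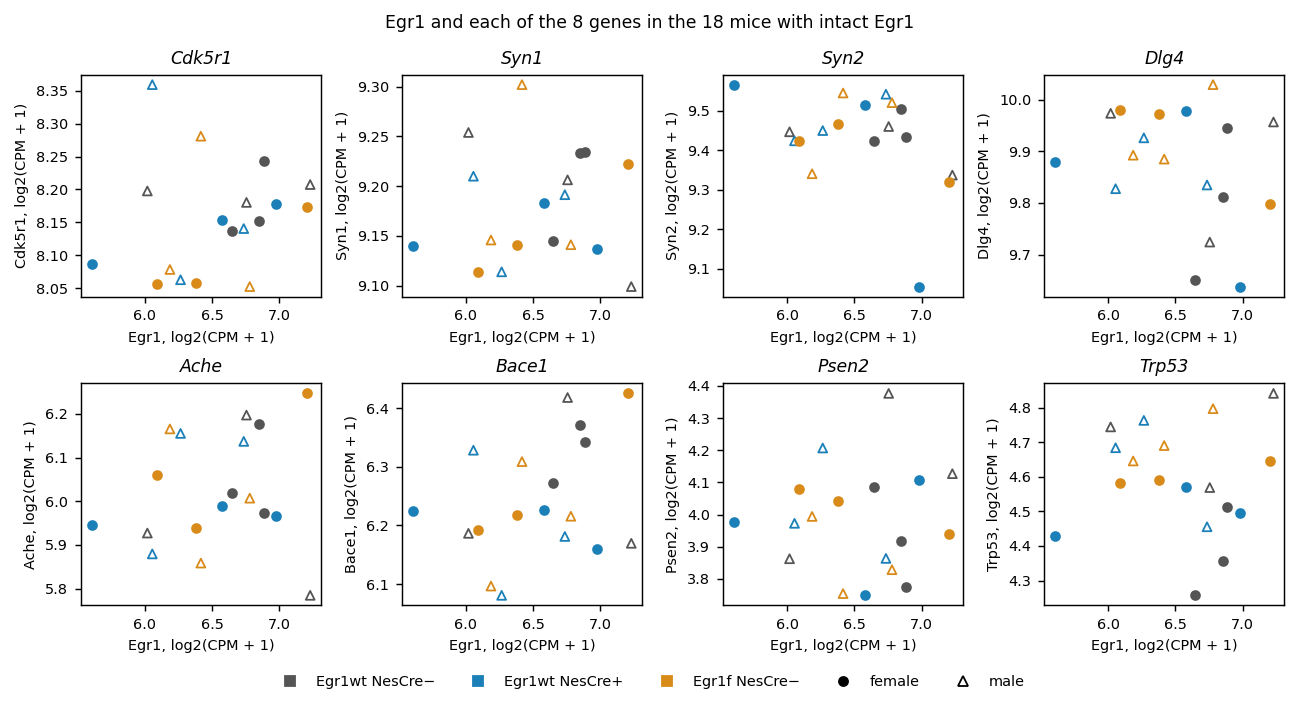
Level of each reported target against the level of *Egr1*, both as log2(CPM + 1), in the 18 mice with intact *Egr1*, marked by genotype. Pearson's r lies between −0.39 (Syn2) and 0.33 (Bace1), with no value past the adjustment over 19741 genes.

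Some targets moved together from mouse to mouse. Over the 28 pairs of targets and 24 mice, a comparison chosen after seeing the data, r was highest for Cdk5r1 with Syn1, at 0.72 (permutation *p* = 0.00011, rho 0.68 with permutation *p* = 0.00035, r 0.69 without the 2 mice farthest from the median). It was 0.71 for Syn1 with Bace1 (permutation *p* = 0.00014, rho 0.71 with permutation *p* = 0.00018, r 0.71 without 2 mice) and 0.61 for Cdk5r1 with Bace1 (permutation *p* = 0.0013, rho 0.53 with permutation *p* = 0.00744, r 0.54 without 2 mice). The *p* values of these pairs carry no adjustment. Their permutations exchanged all 24 mice without regard to genotype or sex. The share of other gene pairs with such an r was not computed. The most negative pair was Syn1 with Psen2, at −0.55 (permutation *p* = 0.0052, rho −0.65 with permutation *p* = 0.00086, r −0.50 without 2 mice). Within the 12 Egr1 wt and the 12 floxed mice, r was 0.44 and 0.83 for Cdk5r1 with Syn1, 0.61 and 0.74 for Syn1 with Bace1, and 0.45 and 0.67 for Cdk5r1 with Bace1. In the same order of pairs, the permutation *p* was 0.150, 0.0361 and 0.144 in the Egr1 wt mice and 0.00166, 0.00774 and 0.0199 in the floxed mice. The floxed mice include the Egr1cKO mice, the genotype with the highest means of Cdk5r1, Syn1 and Bace1. Syn1 and Syn2, the pair of paralogues, had an r of 0.38 (permutation *p* = 0.0644, rho 0.35 with permutation *p* = 0.0934, r 0.36 without 2 mice).

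For each target the 2 genes most like it over the 24 mice were taken from the other 19741 genes kept, by Pearson's r of log2(CPM + 1), as a description. Cdk5r1 was most like Slc12a5 (0.92), which encodes the neuronal chloride exporter KCC2, and Atrnl1 (0.91). Among the 2 for Syn1 was Dnm1 (0.87), which encodes the dynamin of synaptic vesicle recycling, and Syn2 was most like Ak5 (0.88) and Galnt16 (0.84). For Dlg4 they were Pfn1 (0.89), which encodes the actin-binding protein profilin 1, and Npdc1 (0.87), and for Bace1 they were Reps2 (0.90) and Wdr7 (0.89). Weaker likeness was found for Psen2, with Alkbh3 (0.81) and Tmem169 (0.73), for Ache, with Nrsn2 (0.78) and D630023F18Rik (0.77), and for Trp53, with Ybx1 (0.75) and Gm16267 (0.71).

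Other genes of the EGR family were listed beside their reported targets. The list holds Egr1, the 3 related factors Egr2, Egr3 and Egr4, and the corepressors Nab1 and Nab2. Egr1 was its DEG in each comparison, by edgeR and by DESeq2, and 0 of the other 5 were. Positive log2FCs numbered 3, 4 and 3 of 6, with medians of 0.04, 0.15 and 0.00086, and 2, 4 and 1 genes had an unadjusted *p* under 0.05 in edgeR. Egr3, the most abundant at 155 CPM, had log2FCs of 0.19 (standard error 0.09, adjusted *p* = 0.344 from edgeR), 0.27 (0.10, adjusted *p* = 0.359) and 0.14 (0.10, adjusted *p* = 0.812). Of 11 genes induced by neuronal activity, 5, 6 and 2 had a positive log2FC, with medians of −0.04, 0.07 and −0.26, 0 were DEGs by edgeR or DESeq2, and 0, 0 and 1 had an unadjusted *p* under 0.05 in edgeR. Arc, the most abundant of them at 179.6 CPM, had log2FCs of 0.08, 0.35 and −0.15 with standard errors of 0.24, 0.25 and 0.19.

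Markers of cell types were measured in the same mice, since whole tissue mixes neurons with glia. Of 6 general neuron markers, 3, 4 and 4 had a positive log2FC, with medians of 0.03, 0.07 and 0.03, 0 were DEGs by edgeR or DESeq2 and 1, 1 and 1 had an unadjusted *p* under 0.05 in edgeR. Map2, a dendritic microtubule protein gene and the most abundant at 1301 CPM, had log2FCs of 0.36 (standard error 0.10, adjusted *p* = 0.243 from edgeR), 0.38 (0.09, adjusted *p* = 0.357) and 0.21 (0.06, adjusted *p* = 0.593). Summed over the 6 genes, the lowest, median and highest levels were 2554, 2815 and 3014 CPM in Egr1cKO, 2287, 2388 and 2716 CPM in floxed control, 2209, 2428 and 2668 CPM in Cre control, and 2317, 2643 and 2727 CPM in wild-type mice. Egr1cKO mice had the highest median sum, with overlap, but Map2 is on average the largest part of the sum. Of 8 hippocampal neuron markers 3, 6 and 3 were positive, with medians of −0.04, 0.07 and −0.07, 0 were DEGs by edgeR or DESeq2 and 1, 1 and 0 had an unadjusted *p* under 0.05 in edgeR.

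All 6 oligodendrocyte markers had a negative log2FC in each comparison, with medians of −0.23, −0.31 and −0.16. With edgeR 0 of 6 were DEGs and 3, 3 and 0 had an unadjusted *p* under 0.05, and DESeq2 called 1 against floxed controls, Mobp, at −0.52. Mbp, the myelin protein gene that is the most abundant at 2245 CPM, had log2FCs of −0.41 (standard error 0.11, adjusted *p* = 0.243 from edgeR), −0.34 (0.12, adjusted *p* = 0.359) and −0.14 (0.10, adjusted *p* = 0.804). The lowest, median and highest summed levels of the 6 genes were 3248, 4264 and 4662 CPM in Egr1cKO, 3993, 5178 and 5904 CPM in floxed control, 4025, 5126 and 6141 CPM in Cre control, and 4034, 4195 and 5493 CPM in wild-type mice. The part of the Map2 and oligodendrocyte levels in the log2FCs of Cdk5r1, Bace1 and Syn1 was not tested.

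Of 6 astrocyte markers, 5, 4 and 5 were positive, with medians of 0.17, 0.08 and 0.17, and 3, 2 and 3 had an unadjusted *p* under 0.05 in edgeR. Aqp4, the water channel of astrocyte endfeet, was a DEG against floxed controls (log2FC 0.82, standard error 0.11, adjusted *p* = 0.00754 from edgeR) and against wild-type mice (0.68, 0.09, adjusted *p* = 0.0103), with a log2FC of 0.28 against Cre controls, and the difference between these was not tested. Aldoc, the most abundant at 676 CPM, had −0.19, −0.04 and −0.03. The summed levels of the 6 genes had medians of 2370 CPM in Egr1cKO, 2160 CPM in floxed control, 2229 CPM in Cre control and 2127 CPM in wild-type mice. Microglial markers were positive for 5, 5 and 6 of 6 genes, with medians of 0.21, 0.13 and 0.21, and their most abundant gene, Csf1r at 91.5 CPM, had log2FCs of 0.22, 0.22 and 0.19. Endothelial markers were positive for 5, 5 and 6 of 6 genes, with medians of 0.12, 0.25 and 0.40, led in abundance by Flt1 at 45.7 CPM. In these 2 lists 0 genes were DEGs by edgeR or DESeq2, and 2, 1 and 3 microglial and 1, 2 and 4 endothelial genes had an unadjusted *p* under 0.05 in edgeR.

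Markers of the choroid plexus differed widely between mice. The 7 choroid plexus markers, led by Ttr at 220.3 CPM, summed to more than 100 CPM in 5 mice, a limit set after seeing the data: 2039 CPM in female replicate 1 and 322 CPM in male replicate 3 of Cre control, 807 and 1032 CPM in male replicates 2 and 3 of floxed control, and 1126 CPM in male replicate 2 of Egr1cKO mice. The lowest and the median sums were 30.1 and 55.4 CPM in Egr1cKO, 34.5 and 44.0 CPM in floxed control and 54.7 and 65.6 CPM in Cre controls, and wild-type mice held 33.7 to 45.0 CPM. The female with the highest sum is the mouse with the lowest Syn2. Each comparison was refitted without those of the 5 mice that belong to its own genotypes. Against wild-type mice this left out male replicate 2 of Egr1cKO alone. Against floxed controls, male replicate 1 was the only male control kept. In these fits the log2FC of Cdk5r1 was 0.18 (standard error 0.08, adjusted *p* = 0.707 from edgeR), 0.16 (0.08, adjusted *p* = 0.471) and 0.14 (0.05, adjusted *p* = 0.438), and that of Bace1 was 0.08, 0.13 and 0.05. In the same fits 1, 2 and 4 genes were DEGs, and 0 targets were.

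In the remaining marker lists, 0 genes were DEGs with edgeR. Choroid plexus markers were positive for 4 of 7, 1 of 6 and 5 of 5 genes tested, with medians of 0.02, −0.85 and 1.19. Striatal markers, led by Ppp1r1b at 31.1 CPM, were positive for 5, 6 and 5 of 6, with medians of 0.21, 0.29 and 0.32. Fibroblast markers, led by Dcn at 29.8 CPM, were positive for 4, 3 and 3 of 5, with medians of 0.62, 0.29 and 0.52, and DESeq2 called 1 of them, Col1a2, against floxed controls. Hemoglobin and other blood genes, led by Hbb-bs at 31.5 CPM, were positive for 2, 1 and 1 of 5, with medians of −0.32, −0.36 and −0.33. Of the pituitary genes 2 were tested, and 2, 1 and 2 were positive, with medians of 0.45, 0.02 and 0.44. The numbers with an unadjusted *p* under 0.05 in edgeR were 0, 0 and 2 for choroid plexus, 0, 1 and 3 for striatum, 2, 0 and 1 for fibroblasts, 1, 1 and 2 for blood and 0, 0 and 0 for pituitary genes.

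The number of DEGs rested on single mice in each comparison, while the number of targets among them was 0 in each of the 36 fits that left out 1 mouse. Against floxed controls it was 327 without male replicate 1 and 1 without male replicate 2 of that genotype. In the same comparison it was 10 and 13 without male replicates 2 and 3 and 2 without each of the 3 females of Egr1cKO. Against Cre controls it was 795 without male replicate 2 of that genotype and 2 without male replicate 2 of Egr1cKO. Against wild-type mice it was 6 without male replicate 1 of that genotype, and 1, 4 and 18 without female replicate 3 and male replicates 2 and 3 of Egr1cKO.

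The promoters were searched for the binding letters of EGR1, because the 8 genes are reported as its targets. RefSeq promoters (build GRCm38.p6, 250 bases before to 50 bases after a start of transcription) were matched by symbol for 6 of the 8 genes, with 10 promoters in all. Cdk5r1 and Bace1 are named only. The letters GCGNGGGCG, read on both strands, occurred in 1824 of 32851 promoters (5.55%) and in 2 of the 10 promoters of targets, 1 of Ache and 1 of Syn2. The letters GGGCGG of the SP1 box occurred in 11714 promoters (35.7%) and in 4 of the 10, 1 each of Psen2, Ache, Syn2 and Dlg4. In Ache the EGR1 letters occur 2 times, at −48 to −40 and −25 to −17 from the start, and in Syn2 they occur 1 time, at −41 to −33. Each of the 3 matches reads GCGGGGGCG on the strand of the gene and overlaps an SP1 box. The 2 promoters are shown because they hold those matches, which are in capitals. Ache is read from chr5:137288004-137288303 on the plus strand, with 74% G and C, and Syn2 from chr6:115134652-115134951 on the plus strand, with 62.3%, beside a median of 52.7% over all promoters.
Ache: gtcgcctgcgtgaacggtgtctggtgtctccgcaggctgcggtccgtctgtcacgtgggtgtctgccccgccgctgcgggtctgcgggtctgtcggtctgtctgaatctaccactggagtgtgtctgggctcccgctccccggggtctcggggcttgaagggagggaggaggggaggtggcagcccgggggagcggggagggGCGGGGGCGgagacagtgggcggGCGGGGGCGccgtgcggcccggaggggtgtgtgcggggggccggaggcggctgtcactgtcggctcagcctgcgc
Syn2: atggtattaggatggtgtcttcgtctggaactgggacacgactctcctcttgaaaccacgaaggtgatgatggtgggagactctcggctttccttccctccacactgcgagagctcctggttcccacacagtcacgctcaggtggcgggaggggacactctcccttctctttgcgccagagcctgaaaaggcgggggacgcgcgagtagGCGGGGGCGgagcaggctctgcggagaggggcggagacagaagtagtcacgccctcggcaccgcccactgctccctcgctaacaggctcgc
A match describes letters in this window and says nothing of binding in these mice. The 2 genes with a match had log2FCs between −0.0053 and 0.05 over the 3 comparisons, with every interval inside a 1.2-fold change.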

How the data were processed

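The authors extracted RNA from the hippocampus, sequenced non-stranded libraries of polyadenylated RNA, trimmed the reads with Trim Galore and counted them per gene with STAR on mm10 (GRCm38). The submitters' processing notes give Trim Galore 3.8.2 and STAR 2.7.9, and the paper's methods give other versions of both. They deposited these counts as whole numbers without normalization. Symbols, positions and exon lengths came from GENCODE M21 on GRCm38, which named 36493 of 36605 genes. Counts were tested in R 4.3.3 with edgeR 4.0.16 (TMM factors, filterByExpr with a minimum count of 10, quasi-likelihood F test), with sex as a covariate. Comparisons of 2 genotypes were fitted on their own 12 mice, and the pooled, sex and interaction tests on all 24. DESeq2 1.42.0 was an alternative. Standard errors were taken from the log2FC and the square root of its F. Permutation tests were exact within sex or used 100000 draws. The fits were tested on simulated counts, and no result of that test is given here.

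The targets come from the literature, and they and the lists were chosen with earlier results of these data known. The text names every target, and from each other list the most abundant gene and every gene called by edgeR with the filter or by DESeq2. It also names Chat and Grik4, the least abundant of their lists. From the CDK5 list it names Cdk5 and the other genes with an unadjusted *p* under 0.05 from edgeR against floxed controls. Among the genes most like a target, 1 is not reported here. Alternatives are given below.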

Additional observations from a re-analysis of the deposited data

Results flagged for a closer look

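For each of the 8 targets and *Egr1*, each genotype was tested for a mouse far from the other 5, that is a highest or lowest value whose gap to the nearest mouse passes the 5% point of Dixon's ratio to the whole range. Of the 36 groups of 6 mice, 4 held such a value, and chance gives about 1 in 20.

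Cdk5r1 was at 327 CPM in male replicate 2 of Cre controls, where the next mouse was at 289 CPM and the gap was 0.637 of the range. Syn2 was at 531 CPM in female replicate 1 of Cre controls, below the next mouse at 686 CPM, a gap of 0.685 of the range, and that mouse had the highest summed choroid plexus markers, 2039 CPM. Bace1 was at 66.7 CPM in male replicate 3 of Egr1cKO mice, below the next mouse at 79.4 CPM, a gap of 0.627. Psen2 was at 18.03 CPM in the same mouse, above the next at 13.8 CPM, a gap of 0.700. No cause of these values was tested.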

How the results depend on the processing

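The alternatives to the 9 comparisons kept all mice, left out mice rich in choroid plexus markers or left out 1 mouse. Over the first 2 kinds, 277 log2FCs of targets kept their direction and side of the threshold, 7 reversed and 4 passed it. Those 4 came from the exact permutation test of 1 gene. They passed on its unadjusted *p*, unlike the threshold of a DEG, and were not DEGs. With 1 mouse left out at a time, 263 kept both and 25 reversed. In 69 fits, 1 of them the same as another, 0 targets were called.

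With DESeq2 the DEGs numbered 61, 30 and 20 for Egr1cKO against floxed control, Cre control and wild-type mice, 2 for the floxed allele, 16 for Cre, 45 for the pooled comparison, 36 for the interaction of both and 3 for that of sex. With no filter on low counts they were 808, 529, 251, 163, 156, 9, 1173 and 61, and 79 between the sexes. That alternative also called genes of the lists in the first, second and last comparison with Egr1cKO: 2, 2 and 0 presynaptic, 4, 4 and 1 postsynaptic, 1, 0 and 0 cholinergic, 2, 0 and 0 of the CDK5 list, 0, 3 and 2 induced by activity, 2, 3 and 1 of the EGR family, 1, 1 and 0 neuron, 2, 1 and 0 hippocampal neuron, 2, 1 and 2 astrocyte, 3, 3 and 0 oligodendrocyte, 1, 1 and 2 endothelial, 0, 1 and 3 choroid plexus, 1, 1 and 3 striatal, 2, 0 and 2 fibroblast and 1, 1 and 1 blood genes. A shared fit of 24 mice gave 3 against Cre control and 5 against wild-type mice. Without those of the 5 choroid plexus mice that belong to the genotypes compared, chosen after seeing the data, they were 1, 2 and 4. The last of these is the same fit as that without male replicate 2 of Egr1cKO. With 1 mouse left out they ran from 1 to 327, 1 to 795 and 1 to 18. The replicate block gave 9 against floxed controls and moved the other counts by less than 1.5 times. Mice of the same number did not all deviate together (r from −0.246 to 0.226). With so few mice of each sex and genotype, this check cannot decide whether the numbers pair the mice. The main fits did not use them as pairs.

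The exact permutation test of 1 gene passed its unadjusted threshold for Cdk5r1 (0.20, 0.15 and 0.13, *p* = 0.015, 0.02 and 0.005) and for Syn1 against Cre controls (0.077, *p* = 0.025). Between Cre and wild-type mice, *Egr1* had a log2FC of −0.34 with an adjusted *p* of 0.763 from edgeR, and of −0.34 with 0.00766 when no filter was used, where its standard error was 0.08.

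Reversed values were near 0. Without the choroid plexus mice, Ache was 0.077 against floxed controls, and Syn2 −0.0029, Dlg4 −0.053 and Trp53 −0.069 against Cre controls. Trp53 was −0.0024 there with no sex covariate. Psen2 was −0.00071 for the interaction of floxP and Cre with no filter, and Syn2 0.0019 between the sexes with DESeq2. With 1 mouse left out, Ache ran from −0.090 to 0.049 against floxed controls. Against Cre controls Syn2 ran from −0.019 to 0.085, Dlg4 from −0.034 to 0.037, Ache from −0.047 to 0.10 and Trp53 from −0.035 to 0.039. Against wild-type mice Dlg4 ran from −0.032 to 0.036, Ache from −0.062 to 0.082 and Trp53 from −0.020 to 0.068.

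Correlations with *Egr1* kept their sign and side in 42 of 56 alternatives. In the 9 males r turned to −0.19 for Cdk5r1, −0.43 for Syn1, 0.0055 for Syn2, 0.038 for Dlg4, −0.12 for Ache and 0.070 for Trp53. In the 9 females it was 0.74 for Cdk5r1 (exact permutation *p* = 0.0214), −0.20 for Psen2 and 0.10 for Trp53. In the 12 Egr1 wt mice Syn1 was at −0.12, and in the 6 floxed controls Psen2 was at −0.39 and Trp53 at 0.43. Psen2 was at −0.064 without the 2 farthest mice, and Trp53 at 0.038 on CPM without logs. For each of these changes the cause was not tested.

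With 6 mice a group and these depths, the standard error of a target's log2FC was between 0.05 and 0.11.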
